A study of Homo sapiens with 38 samples.

Results

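Of the 26205 regions bound by BHLHE40 in stimulated Jurkat cells, 3066 (11.7%, 95% Wilson interval 11.3 to 12.1%) overlapped neither a GATA3 region nor an H3K27ac region. These BHLHE40-alone regions, or members, were selected on overlap itself: a line of the BHLHE40 peak list belonged to them when it shared no base with any of the 29009 GATA3 regions and any of the 113570 H3K27ac regions. Everything about those overlaps, and every comparison of binding strength or width between classes cut by them, is therefore given as a description. The other BHLHE40 regions were 9262 with H3K27ac only, 3112 with GATA3 only and 10765 with both.

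Jurkat is an established human T-cell acute lymphoblastic leukaemia line. Chromatin immunoprecipitation and sequencing (ChIP-seq) was used, in which fixed, sheared chromatin is pulled down with an antibody and the recovered DNA is sequenced. The 3 groups used here, one per antibody, each held 2 samples with the genotype Ctrl_LV, a control lentivirus, and shared stimulation with ionomycin (500 ng/ml) and the phorbol ester PMA (50 ng/ml). What the control lentivirus carried is not described in the sources used here. The stimulation time was 5 hours in the sample labels and 2 hours in the treatment protocol. One list was made from the 2 samples of a group together, so no value was given per sample and none of the comparisons below could be tested over samples. Intervals cover counting only, since regions are not replicates, and sequencing depth is unknown. H3K27ac regions lay over the records of 6 of 7 T-cell marker genes and 1 of 5 marker genes of other blood cells.

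BHLHE40, also called DEC1, is a basic helix-loop-helix repressor that binds the E-box CACGTG and takes part in the feedback of the circadian clock. It is induced when T cells are activated and shapes their cytokine output. Acetylation of histone H3 at lysine 27 (H3K27ac) marks active promoters and enhancers, and GATA3 is a zinc-finger factor of the T-cell lineage. A BHLHE40 region with neither is a place where the factor was detected outside the called acetylated chromatin and outside the regions of this lineage factor.

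Sequence was read where a BHLHE40-alone region covered a RefSeq promoter window, a stretch of 300 bases around a transcription start site in GRCh38.p14. The 5 stretches below come from the part upstream of the start site. They are examples from 13 windows in which the BHLHE40 summit, the base of highest enrichment, lay within 20 bp of an E-box. Capitals mark CACGTG, and each is written 5′ to 3′ on the strand of its gene. They belong to FMR1 (an RNA-binding protein, chrX:147911839-147911904, plus strand), CORO2A (a coronin, chr9:98192791-98192856, minus), RAB4A (a GTPase of recycling endosomes, chr1:229270979-229271044, plus), EIF4G1 (a scaffold of translation initiation, chr3:184314432-184314497, plus) and NPL (an enzyme of sialic acid breakdown, chr1:182789687-182789752, plus).
FMR1: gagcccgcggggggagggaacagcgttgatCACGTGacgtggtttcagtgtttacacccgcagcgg
CORO2A: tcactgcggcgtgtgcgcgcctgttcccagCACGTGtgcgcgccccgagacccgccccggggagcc
RAB4A: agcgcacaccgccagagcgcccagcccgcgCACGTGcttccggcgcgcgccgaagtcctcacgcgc
EIF4G1: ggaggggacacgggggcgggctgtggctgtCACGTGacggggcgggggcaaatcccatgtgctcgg
NPL: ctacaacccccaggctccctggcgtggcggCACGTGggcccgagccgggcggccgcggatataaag

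The summit lay 1.5 bp from the middle of the E-box at EIF4G1 and 4.5 bp from it at RAB4A. It lay 7.5 bp away at NPL, 11.5 bp at CORO2A and 18.5 bp at FMR1. Their BHLHE40 signal values were 8.53 at EIF4G1, 9.20 at RAB4A, 5.74 at NPL, 11.0 at CORO2A and 14.6 at FMR1. Among these examples, an E-box near the summit thus occurred at weak as well as stronger regions. The signal value is the enrichment the authors' peak caller gave each region, and its reference is not given in the sources used here. The nearest H3K27ac region was 100 bp away at EIF4G1 and 2838 bp away at CORO2A. Stronger regions whose promoter window lacked the motif are shown beside them, at SLC12A4 (a potassium-chloride cotransporter, chr16:67968711-67968771, minus, signal value 19.6) and HOXD8 (a homeobox factor of body patterning, chr2:176129597-176129657, plus, 18.4). Neither of these promoter windows held CACGTG, and the parts of the regions outside the windows were not searched.
SLC12A4: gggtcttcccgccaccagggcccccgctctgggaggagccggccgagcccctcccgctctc
HOXD8: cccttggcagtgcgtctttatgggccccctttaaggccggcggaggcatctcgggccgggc

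BHLHE40-alone regions were weak and narrow within their list. Their median signal value was 6.98 (quartiles 5.70 and 8.76, highest 33.0), against 8.37 for regions with H3K27ac only, 8.70 with GATA3 only and 12.5 with both. Their median width was 489.5 bp, close to the 504 bp of regions with GATA3 only, whereas acetylated regions were wider, at 812 bp with H3K27ac only and 877 bp with both. Width is tied to the selection, since a wider region has more bases that can be shared. BHLHE40-alone regions made up 22.8% (21.2 to 24.5%) of the weakest decile of all BHLHE40 regions and 0.839% (0.555 to 1.27%), or 22 of 2621, of the strongest decile. Repeatability followed: 52.2% of them, 1600 regions, had an irreproducible discovery rate (IDR, how poorly a peak's rank repeats between samples) of at most 0.01, against 77.1%, 71.7% and 91.9% in the other classes in the same order. In 27 of the 58 BHLHE40 regions whose q-value was above 0.05, the region was BHLHE40-alone.

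**Figure D1:**
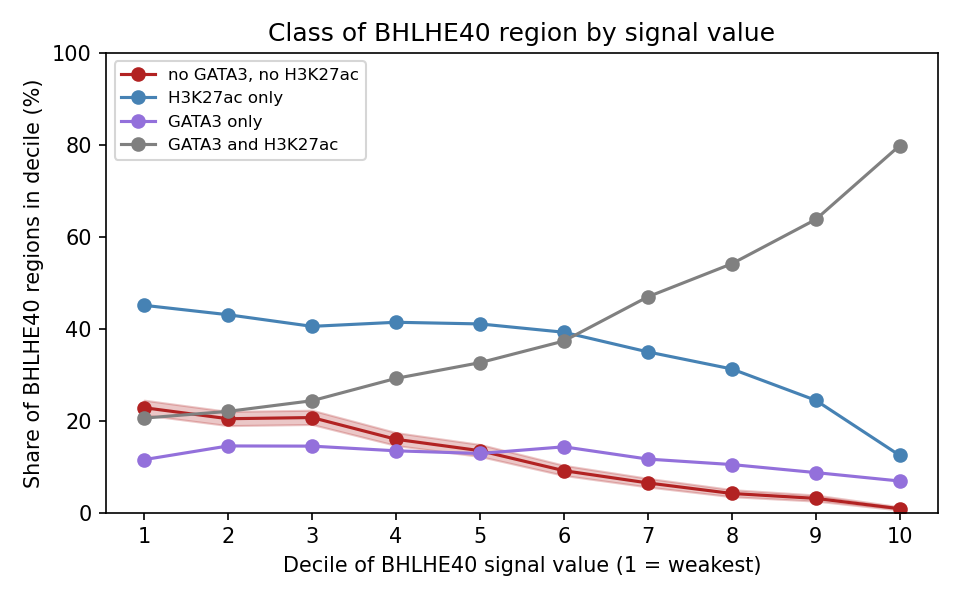
The share of each class of BHLHE40 region (y axis, percent) is drawn for deciles of the list from the weakest to the strongest signal value (x axis), with a 95% Wilson band for regions without GATA3 or H3K27ac. Their share falls from 22.8% to 0.839%, while that of regions with both rises from 20.6% to 79.9%.

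Strong members existed nonetheless, and the 10 with the highest signal value all had the maximal score of 1000. So did 34.1% of all members and 68.5% of all BHLHE40 regions. The strongest member, at 33.0, had its summit 342 bp upstream of the start site of TCFL5, itself a basic helix-loop-helix factor, with H3K27ac 254 bp away. The next, at 30.1, lay 39 bp from the end of a gene record and 16261 bp from the nearest start site, that of SLC25A39, a mitochondrial carrier. Both its nearest H3K27ac region (15079 bp) and its nearest GATA3 region (13649 bp) were remote. Summits at start sites were those of LRRC37B (27.8, 19 bp upstream), NFKBID (an atypical inhibitor of NF-kB, 27.4, 27 bp downstream) and FAM20B (a xylose kinase of proteoglycan synthesis, 26.8, 436 bp upstream). The FAM20B summit was upstream of its nearest start site but inside the FAM20B record. Summits inside genes and more than 1 kb from a start site were those in ITIH5 (28.1), SOX12 (a transcription factor, 26.9) and NELFB (a subunit of the negative elongation factor, 26.5). The last 2 were outside gene records, 1 on chromosome 21 (28.3) and 1 on a scaffold apart from the assembled chromosomes (28.3). On that scaffold the list held no other BHLHE40 region.

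The opposite end of the list held 3 members on the mitochondrial genome, at ranks 26194, 26204 and 26205 of 26205. Their signal values were at most 1.65, yet their −log10 q-values were 26.7 to 74.6, so a low value did not always go with a weak q-value. Mitochondrial DNA carries no histones, yet the H3K27ac list held regions 79 to 983 bp from these 3, which are named here after their values were seen. On chromosomes 1 to 22 alone, members were 11.7% of 25455 BHLHE40 regions.

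Widths reached 6909 bp, and 6 of the 95 BHLHE40 regions of at least 5 kb were BHLHE40-alone. The widest (signal value 14.5) ended beyond NR4A3, an orphan nuclear receptor induced by T-cell activation, with its summit 1144 bp from the end of the record. The next, 6090 bp, lay in RBM39, a splicing factor (7.05). The 5609 bp region on chromosome 16 (6.92) lay outside gene records, 18778 bp from the start site of SLC7A5-AS1.

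Although none overlapped H3K27ac, many lay near it. The median gap to the nearest H3K27ac region was 2998 bp (quartiles 878 and 9923), and 821 regions (26.8%) had one within 1 kb, 135 of them within 100 bp. For 784 of these 821 the H3K27ac was on one side only, and for 37 on both. The neighbouring H3K27ac regions had a median −log10 q of 5.10, between the 3.00 of all H3K27ac regions and the 11.5 of those that overlapped BHLHE40. GATA3 was farther, with a median gap of 14959 bp and 276 regions (9.0%) within 1 kb. A set of 685 regions (22.3%) had both beyond 10 kb. Their median signal value, 7.67, was above the 6.41 of those with H3K27ac within 1 kb, so the regions farthest from the marks were not the weakest.

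**Figure D2:**
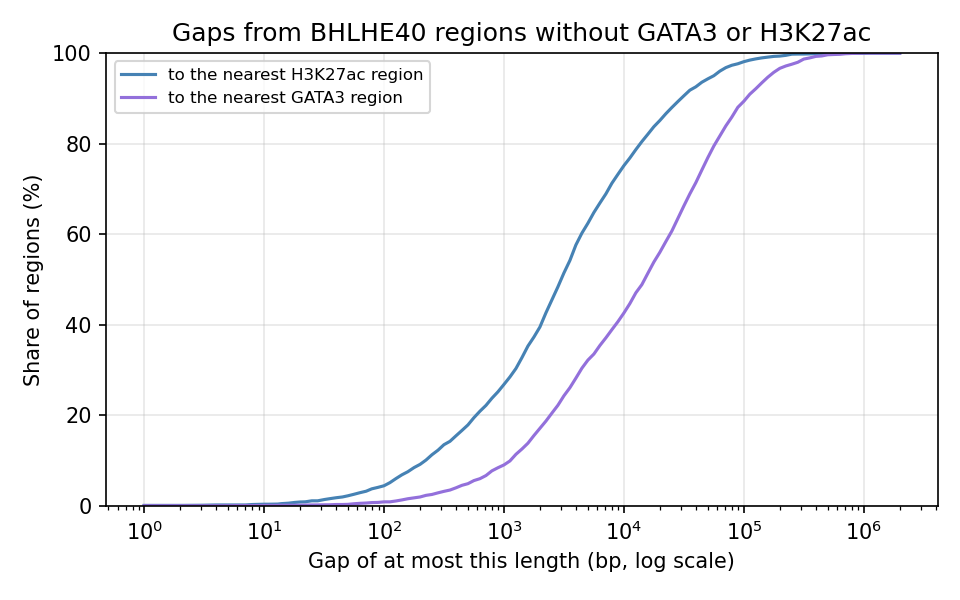
Cumulative share of the 3066 BHLHE40-alone regions (y axis, percent) whose gap to the nearest H3K27ac or GATA3 region is at most the length on the x axis (bp, log scale). The H3K27ac curve passes 26.8% and the GATA3 curve 9.0% at 1 kb.

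The limit of a single shared base set membership narrowly for few regions. Among the nearest members to it on H3K27ac were those in PSTPIP1 (gap of 0 bp, signal value 8.54) and at TNFSF14, a ligand of the tumour necrosis factor family (3 bp, 7.87). The regions excluded by the smallest overlaps were 1 outside gene records on chromosome 16 (1 bp shared, 13.0), 1 in PITPNM2 (2 bp, 9.21) and 1 in LINC01391 (2 bp, 4.55). On GATA3 the nearest members lay in TAFA5 (gap of 6 bp, 14.7), SERPINB8 (10 bp, 2.16) and GGA2 (14 bp, 10.2), and the nearest excluded regions in NIPBL-DT (2 bp shared, 1.97), PTPRC (3 bp, 4.55) and PTPN18 (21 bp, 5.70). Within 100 bp of the limit on H3K27ac lay 135 members and 237 excluded regions.

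Position relative to genes was not itself used by the selection. H3K27ac was, and it marks active promoters, so start-site shares are not independent of the cut. The comparison with acetylated classes is therefore a description. A summit lay within 1 kb of a RefSeq start site in 501 BHLHE40-alone regions (16.3%, 15.1 to 17.7%). The share was 47.2% (46.2 to 48.2%) with H3K27ac only, 28.4% (27.6 to 29.3%) with both and 2.89% (2.36 to 3.54%) with GATA3 only. Among 11564 GATA3 regions without BHLHE40 or H3K27ac it was 2.16% (1.91 to 2.44%). BHLHE40-alone regions thus lay at start sites more often than either class of GATA3-bound region without acetylation, and less often than acetylated ones, with intervals that did not overlap. A further 338 (11.0%) lay within 1 kb of another end of a gene record, 1513 (49.4%) elsewhere inside a record and 714 (23.3%) between genes.

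**Figure D3:**
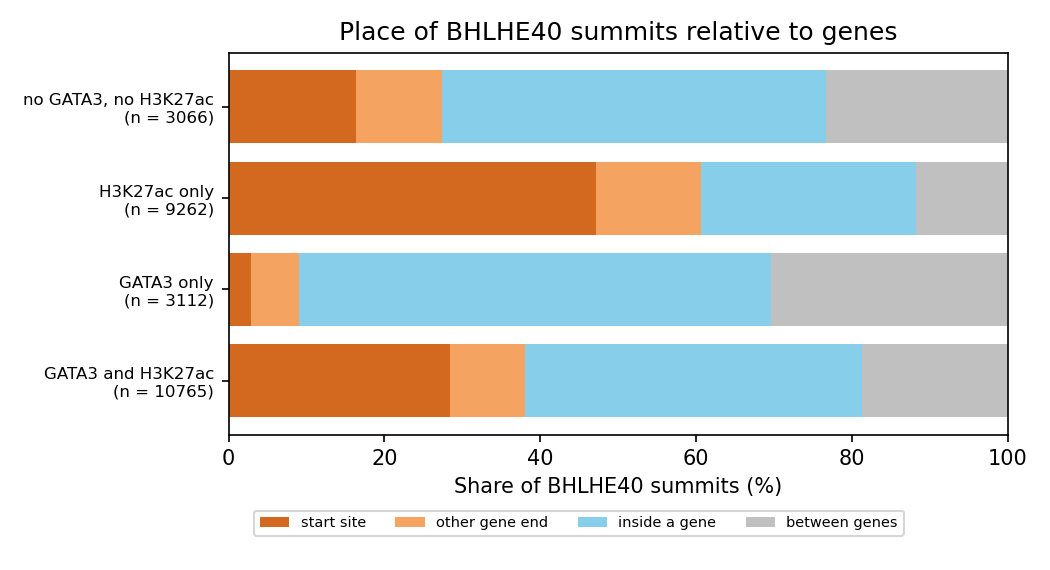
Stacked bars give the share of BHLHE40 summits (x axis, percent) in each class that lie within 1 kb of a start site, within 1 kb of another end of a gene record, elsewhere inside a record or between genes. The start-site share is 16.3% for regions without GATA3 or H3K27ac, 47.2% with H3K27ac only, 2.89% with GATA3 only and 28.4% with both.

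At start sites the BHLHE40-alone summits were less centred than those of acetylated regions. Their median distance from the site was 224 bp, against 108 bp with H3K27ac only and 95 bp with both. With GATA3 only it was 278.5 bp. H3K27ac lay within 1 kb of 235 of these 501 regions (46.9%, 42.6 to 51.3%), against 23.5% of those elsewhere inside genes and 19.5% of those between genes. Of the start-site members, 14.8% had an H3K27ac region 1000 bp to one side of the summit and 13.4% had one 800 bp to the other. The trough between them is set by the selection, which removes H3K27ac at the summit. Conversely, 28.6% (25.6 to 31.8%) of members with H3K27ac within 1 kb lay at a start site, and 11.8% (10.6 to 13.2%) of the others. Leaving out members with acetylated neighbours, a check added after seeing the data, thus kept 266 start-site regions.

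**Figure D4:**
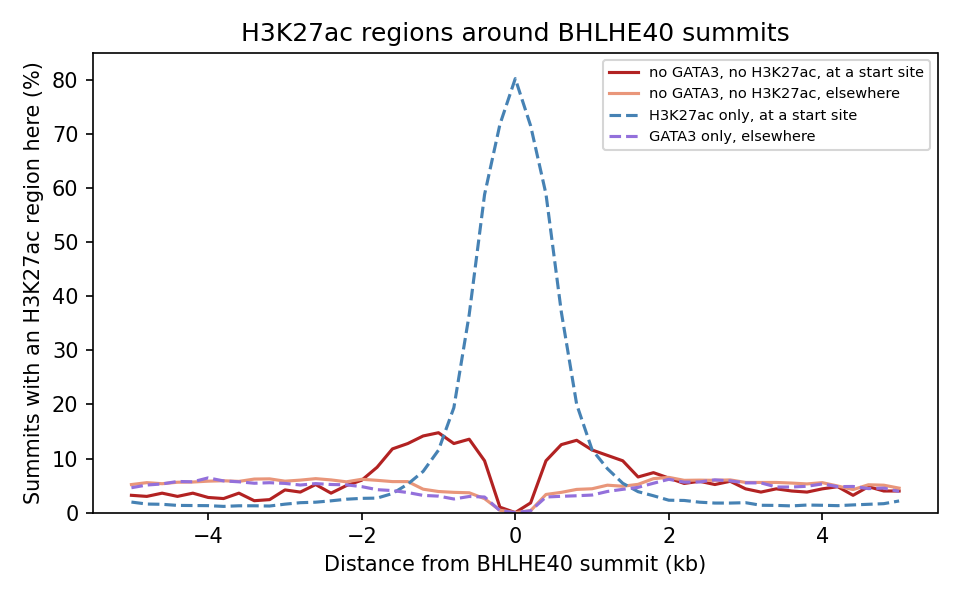
The share of BHLHE40 summits with an H3K27ac region at a given distance (y axis, percent) is plotted against the distance along the chromosome from the summit (x axis, kb, not oriented by gene strand). Start-site regions with H3K27ac only reach 80.3% at the summit, whereas BHLHE40-alone start-site regions are at 0 there by selection and reach 14.8% at 1 kb to one side.

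The strongest start-site members included genes with very different uses, named here after their values were seen. GZMB, which encodes the cytotoxic protease granzyme B, had a summit 180 bp upstream of its start site (signal value 15.4, H3K27ac 8582 bp away). SOX2, a pluripotency and neural factor, had one 227 bp upstream (13.4, H3K27ac 32945 bp away). RARA, the retinoic acid receptor alpha, had one 87 bp downstream (12.8, 2662 bp), and LARP1, an RNA-binding regulator of translation, had one 1 bp downstream (17.1, 40634 bp). WNT10A, a secreted signalling ligand, had one inside its record, 654 bp upstream of the nearest of its start sites (17.7, 11880 bp).

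The promoter windows covered by a BHLHE40-alone region and by no other BHLHE40 region numbered 400, from 323 regions, so some regions count more than once. They were rich in G and C, with a median of 70.3% against 67.7% at H3K27ac-only windows, 63.7% at windows with both and 52.7% at windows without BHLHE40. CACGTG, searched on both strands, was in 47 of the 400 (11.8%, 8.95 to 15.3%). Windows with H3K27ac only held it in 11.3% (10.5 to 12.1%) and those with both in 11.0% (10.1 to 11.9%), against 5.37% (5.09 to 5.67%) of windows without BHLHE40 and 7.23% of all 34943 windows. The E-box shares of the BHLHE40-alone class and of the acetylated classes differed by less than the counting interval of the BHLHE40-alone windows. Only 63 windows had GATA3 only, and 2 of them held the E-box (3.17%, 0.875 to 10.9%). Among windows with at least 65% G and C it was 13.9% (10.4 to 18.4%) at BHLHE40-alone regions and 7.30% (6.63 to 8.02%) without BHLHE40. Between 51.3% and 64.7% G and C, CACGTG was in 4 of 87 BHLHE40-alone windows (4.60%, 1.80 to 11.2%). The shares were 7.56% without BHLHE40 and 11.1% with H3K27ac only, both inside that interval, so these 87 windows did not settle the order. At 51% or less it was in 3 of 26 BHLHE40-alone windows (11.5%, 4.003 to 28.98%) and in 2.94% (2.64 to 3.28%) of those without BHLHE40. The share was thus above that of unbound windows at the highest and lowest G and C content, the latter on 3 windows. Between these a higher share was not seen. In windows that held both the summit and an E-box, the distance between them was a median of 54 bp, against 42.5 bp with H3K27ac only. It was at most 20 bp in 13 of 38 (34.2%, 21.2 to 50.1%) against 28.2%, and at most 50 bp in 16 of 38 (42.1%, 27.8 to 57.8%) against 56.7%, so neither class was closer throughout.

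Another motif was less frequent than in the acetylated classes. CCGGAAG, the core bound by ETS factors, was in 37 of the 400 BHLHE40-alone windows (9.25%, 6.79 to 12.5%), in 21.8% (20.7 to 22.8%) of H3K27ac-only windows and in 24.0% (22.9 to 25.2%) of windows with both. It was in 6 of the 63 windows with GATA3 only (9.52%, 4.44 to 19.3%), a share like that of the BHLHE40-alone windows. It was in 4.44% (4.18 to 4.71%) of windows without BHLHE40 and 10.2% of all windows, before any split by G and C content. With at least 65% G and C, BHLHE40-alone and unbound windows had overlapping intervals, at 9.06% (6.26 to 12.9%) and 7.91% (7.22 to 8.67%). Between 51.3% and 64.7% the shares were 12.6% (7.21 to 21.2%) and 6.47% (5.94 to 7.06%). At 51% or less they were 0 of 26 and 1.35%. The gap to the acetylated classes was also there among windows with at least 65% G and C, where the shares were 9.06% (6.26 to 12.9%), 20.5% (19.3 to 21.9%) and 22.8% (21.1 to 24.6%). GATAAG, the GATA core, was in 2.25% (1.19 to 4.22%) of BHLHE40-alone windows, 2.22% of those with H3K27ac only and 4.98% of those with both. All 3 shares were below the 6.37% of all windows and the 7.76% of windows without BHLHE40. With GATA3 only it was in 7 of 63 (11.1%). This motif and those below were not split by G and C content. The AP-1 motif, TGACTCA or TGAGTCA, was in 5.25% (3.46 to 7.89%) against 2.63% (2.25 to 3.07%) with H3K27ac only and 4.96% of all windows. It was in 3.2% (2.745 to 3.729%) with both, an interval that overlapped, and in 5.91% of windows without BHLHE40. The GC box GGGCGG, added after the data were seen, was in 77.0% of windows both at BHLHE40-alone regions and with H3K27ac only, in 67.7% of those with GATA3 and H3K27ac, in 46.0% of those with GATA3 only and in 44.9% of all. TGTGGTT, the RUNX core, was in 2.5% against 3.02% with H3K27ac only and 4.27% of all windows. These are matches of letters in fixed windows, and they cover only the members at start sites.

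**Figure D5:**
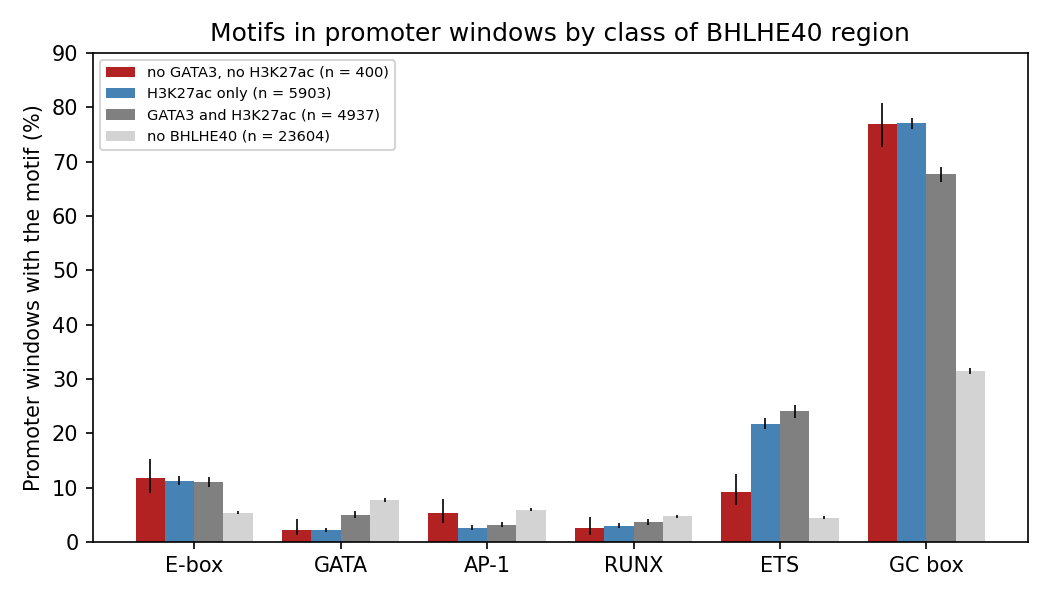
Bars give the share of promoter windows that hold each motif (y axis, percent) for 4 classes of window, with 95% Wilson intervals (black lines). Windows with GATA3 only, 63 in all, are not drawn. The E-box bars of the 3 BHLHE40-bound classes drawn lie between 11.0% and 11.8%, whereas the ETS bar is 9.25% for regions without GATA3 or H3K27ac and 21.8% and 24.0% for the acetylated classes.

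Over protein-coding genes, 8.70% of records (1744 of 20052) held the summit of a BHLHE40-alone region inside or within 1 kb, and 2.72% of start sites (431 of 15842) had one within 1 kb. Another BHLHE40 region was at 54.6% of these records and 46.2% of these start sites. Of 19 clock gene records 5 held one, among them BHLHE40, NPAS2 and BMAL1. The region in BHLHE40 itself (signal value 9.0) lay 4 bp from H3K27ac, and that in NPAS2, a partner of BMAL1 in the clock (8.65), 1743 bp from it. The region in BMAL1 had a signal value of 6.65. None of 18 clock start sites had a BHLHE40-alone summit within 1 kb, too few sites to set apart from the 2.72% background. Another BHLHE40 region was at 11 of the 18. For genes of E-box factors the counts were 6 of 22 records and 1 of 20 start sites, that of TFEB, which directs lysosomal genes (6.69). The strongest lay in MXI1, an antagonist of MYC (20.2, H3K27ac 17660 bp away), in SREBF1, which drives lipid synthesis (10.3 and 7.32), and in MLXIP, a glucose-responsive factor (7.21).

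Lysosomal and vacuolar ATPase genes had 5 of 44 records and 0 of 28 start sites, near the background of 8.70% and 2.72%. The strongest were in PSAP, the precursor of the saposins (8.81), GALNS (6.92) and NPC1, a cholesterol transporter (6.20), and at the end of ATP6V0C, a proton-pump subunit (6.65). T-cell activation genes had 10 of 51 records, and 2 of 37 start sites, those of NFKB1 (9.76, summit 30 bp upstream, H3K27ac 188 bp away) and EGR2 (7.74, H3K27ac 73 bp away). The strongest region of that list, at 11.8, was in NR4A3, followed by that of NFKB1 and by a pair more in NR4A3, at 8.66 and 8.46. T-cell identity genes had 13 of 39 records and 0 of 29 start sites, the latter too few to set apart from the 2.72% background. Another BHLHE40 region was at 23 of those 29 start sites, against 46.2% of protein-coding start sites. The strongest were in RUNX1 (14.1), IKZF3 (8.40), ETS1 (7.19) and TOX2 (6.95), all regulators of lymphocyte development or function. The record shares are not corrected for gene length, and long genes such as RUNX1 can hold several members.

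Gene families taken by symbol differed, against a background of 8.70% of protein-coding records and 2.72% of start sites. HOX genes, which pattern the body axis, had 5 of 39 records and 3 of 20 start sites, while another BHLHE40 region was at 1 of the 20. The 3 start sites came from few regions: HOXD8 had regions of 18.4 and 14.6, and HOXC4 and HOXC5 shared 1 region of 3.16. HOXB9 had a region of 11.9. Zinc-finger genes had 30 of 517 records (5.80%) and 7 of 437 start sites (1.60%), led by ZNF511-PRAP1 (23.0), ZNF217 (13.8 and 9.70) and ZNF185 (10.8). The first of these regions lay inside the long readthrough record, 27966 bp from its start site and 16 bp from that of CALY. Solute carriers had 32 of 386 records (8.29%) and 9 of 303 start sites (2.97%), near the background. Their strongest regions were at SLC12A4, SLC5A10 (16.5), SLC45A3 (12.5) and SLC34A3 (12.5). The region inside SLC5A10 was 54227 bp from its start site and 139 bp from that of FAM83G. Protocadherin genes had 0 of 66 and histone genes 0 of 73. Another BHLHE40 region was at 50 of the 73 histone genes, against 54.6% of protein-coding records. Olfactory receptor genes had 3 of 392: OR10P1 (13.5), OR1F1 (12.9) and OR1J2 (6.80). The OR1F1 region also counted for the tRNA gene TRP-TGG3-5. Its summit was 235 bp from that record and 345 bp from the OR1F1 start site. Nuclear tRNA genes had 16 of 443 records (3.61%), near the 4.04% of all 59788 gene records, and the strongest region, at 14.7, was at TRL-TAG3-1.

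Within 50 kb of 4 genes of interest to the study, each count of members was small, and the share of members over all BHLHE40 regions is the 11.7% given above. At BHLHE40 2 of 8 regions qualified, the one in the gene and one 3075 bp upstream of its start site (5.88). At GATA3 1 of 4 did (6.79), 966 bp from the end of the record. At TAL1, a T-cell leukaemia oncogene, 1 of 5 did (9.06), and at CD69, an early activation marker, 1 of 7 did (8.01, H3K27ac 4303 bp away).

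Members lay closer together in a few stretches. Of all members, 30.5% (28.9 to 32.1%) had another within 50 kb, against 23.7% of the similarly numerous regions with GATA3 only, each measured within its own class. The more numerous acetylated classes stood at 57.9% with H3K27ac only and 62.1% with both. The densest stretch of 100 kb held 11 members among 16 BHLHE40 regions, with signal values of 2.78 to 12.5, at chr16:89090417-89185929 over ACSF3, a mitochondrial acyl-CoA synthetase, and CDH15, a cadherin of muscle. The next held 9 of 18 in BACH2, a repressor that restrains lymphocyte effector differentiation (chr6:90088279-90180697, 2.40 to 8.42). The third held 8 of 13 at chr1:198759738-198859133 (2.45 to 13.5), over no protein-coding record but over MIR181A1HG, the host gene of MIR181A1 and MIR181B1, whose microRNAs tune T-cell receptor signalling. The share of BHLHE40 regions that were members ran from 8.50% on chromosome 4 to 15.4% on chromosome 16 and 14.5% on chromosome 19 among the autosomes. Another class of BHLHE40 region lay within 5 kb of 1229 members (40.1%), at a median gap of 10179 bp over all members.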

How the data were processed

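Each of the 3 deposited lists stands for a group of 2 samples, out of 38 samples in 19 groups by title; the other 16 groups were not analysed here. Per the submitters' processing notes, MACS2 and bcl2fastq 2.20 were used and the build was hg38. The aligner, filters and use of input are not given in the sources used here. The BHLHE40 and GATA3 lists are named for an IDR of 0.05 and the H3K27ac list as pooled. The score, signal value and −log10 q-value per peak are the authors' deposited values, used only within a list. The deposited BHLHE40 scores ran from 540 to 1000, and a score of at least 830 was read as an IDR of at most 0.01.

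Overlap was 1 bp or more, and coordinates are 1-based. Gene records (59788) and promoter windows came from RefSeq, GRCh38.p14. The planned 50 bp windows around summits needed a genome, so promoter windows replaced them. Shares carry Wilson intervals of 95%, covering counting only. Functions, tested on simulated data, ran under Python 3.11.15 with pandas 2.3.3, numpy 2.4.6 and scipy 1.17.1, with figures by matplotlib 3.10.9. The members, gene lists and named regions (10 strongest, 3 widest, 4 loci, 3 densest stretches, up to 4 per list and those nearest the limit) were chosen with earlier results of these data known; a few named by this rule are not reported here. Alternatives were a stricter IDR, a 1 kb margin, stronger H3K27ac, summit overlap, autosomes and other distances.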

Additional observations from a re-analysis of the deposited data

How the results depend on the processing

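No paired analysis was possible because the lists hold no values per sample, and for that reason no replicate could be left out. Motifs over whole regions were not run, since no genome sequence was used here. Of 37 alternatives, 12 left the value within its interval and 25 moved it. With an IDR of at most 0.01, BHLHE40-alone regions were 7.67% of the list, their median signal value 8.47, 27.1% lay within 1 kb of a gene end (24.4% in the main setting) and 20.1% had another within 50 kb. With no mark within 1 kb these were 8.24%, 7.17, 21.0% and 23.1%, with a median H3K27ac gap of 5447 bp. With only H3K27ac of −log10 q of at least 5 they were 18.9%, 7.10, 26.5% and 41.4%, with a gap of 11877.5 bp. With overlap judged at the summit they were 21.4%, 7.35, 33.4% and 44.5%, with a gap of 497 bp. Gene-end shares were 16.9% at 500 bp, 34.0% at 2 kb and 18.0% for protein-coding records. CACGTG was in 4.52% of windows of 20 bp to each side of a summit, which are shorter. Within 10 kb of another member lay 13.2%. The added start-site check without H3K27ac within 1 kb, chosen after seeing the data, gave 11.8% against 16.3%. The E-box share over promoter windows stayed within its interval under the stricter IDR, the margin, the stronger H3K27ac, the summit overlap and the autosomes.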
